A study of Mus musculus with 8 samples.

Results

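Nicotine at 3.0 mg/kg/day was compared with nicotine at 1.5 mg/kg/day in BALB/c newborns on postnatal day 1, in tissue that the labels call posterior palate. The pregnant dams carried an osmotic minipump, a capsule under the skin that delivers its content at a steady rate, and gave birth naturally at about day 21. The labels also give a day of clip removal, which lies before birth and is the same for every array. The comparison rests on 4 of the 8 Affymetrix arrays of the series, chosen by their titles: 2 arrays per dose, labelled as biological replicates 1 and 2. The saline arrays were left out, and the 2 arrays at 4.5 mg/kg/day entered only the estimate of the spread. Every animal compared was therefore exposed to nicotine through its mother, and the contrast is between 2 doses and not between nicotine and none. The labels give 2 pups for the RNA without saying whether this is per array or per group, and they name neither litters nor the nicotine level reached in the pups nor the day of pump implantation. The p-values thus measure the spread between these samples, and with 2 arrays per dose the precision of each value is low.

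Nicotine acts on nicotinic acetylcholine receptors, ion channels opened by the transmitter acetylcholine in nerve and muscle, and it passes from mother to fetus. The secondary palate forms when shelves of mesenchyme covered by epithelium grow, rise and fuse in the midline, under the control of TGF-beta, Hedgehog and Wnt signals, and its rear part later holds skeletal muscle. Brown fat, a tissue of the neck and upper trunk that is not part of the palate, burns fatty acids in its mitochondria to keep the newborn warm and depends on Ucp1, the uncoupling protein of the inner mitochondrial membrane.

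The tissue label was set against marker genes. Values are log2 levels, log2(intensity + 16) after the arrays were brought to the same distribution, and pairs of values give replicate 1 and then replicate 2. None of the 8 genes of tooth enamel and dentine with a probe set lay above the level filter of 4.92, and the list had medians of 4.36 and 4.49 at 1.5 and of 4.43 and 4.50 at 3.0. The list of 17 regulators of face and jaw identity had medians between 4.90 and 5.0 in all 4 arrays, close to the filter, and 10 of them passed it on average. The palate formation list, most of whose genes act in many tissues, had medians of 7.57 and 7.05 at 1.5 and of 7.25 and 7.07 at 3.0. Of 33 Hox genes, whose activity marks the body axis behind the front of the head, 23 passed the filter, in groups 2 to 11. The tooth list thus lay below the filter, the face and jaw list around it.

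The 2 arrays at 1.5 stood apart from each other. Their levels correlated at r = 0.90 across genes, which are not independent replicates, against 0.98 for the 2 arrays at 3.0. They were more than 2 log2 units apart in 287 genes, against 16 genes for the arrays at 3.0. In replicate 1 at 1.5, 119 genes lay over 2 log2 units above the other 3 arrays, and in replicate 2 there were 78 such genes, against 2 and 1 in the arrays at 3.0. Genes of cartilage and horny epithelium stood out in the first and liver and heart genes in the second. The 3' to 5' actin ratio, a sign of RNA integrity, was 1.39 and 1.20 at 1.5 and 1.14 and 1.05 at 3.0, so it was lower at 3.0 without overlap, and its part in the results was not tested. Replicate 1 at 3.0 also differed from the other 3 arrays in the genes of sex: Eif2s3y, a gene of the Y chromosome, was at 4.15 and 4.51 at 1.5 and at 7.92 and 4.37 at 3.0, and Xist, the RNA that coats the inactive X chromosome, was at 10.42 and 10.06 and at 4.48 and 9.78.

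**Figure D1:**
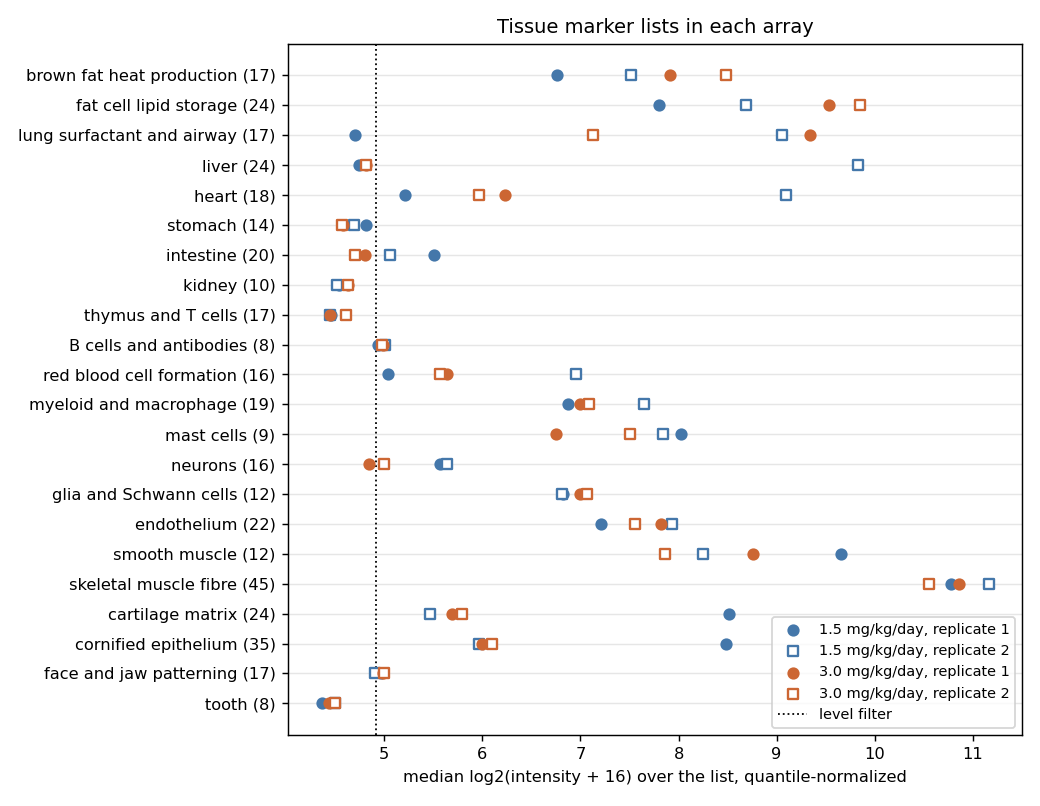
Median log2(intensity + 16) of each tissue marker list (levels on the x axis, lists as lines with their number of genes with a probe set in brackets) in the 2 arrays at 1.5 mg/kg/day (blue) and the 2 at 3.0 mg/kg/day (orange), with replicate 1 as filled circles and replicate 2 as open squares. The tooth list lies below the level filter (dotted line) in all 4 arrays, while the liver list reaches 9.83 in replicate 2 at 1.5 and the cartilage list 8.52 in replicate 1 at 1.5.

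Over all genes, no difference between the doses passed the test, although many genes separated the 4 arrays. Of 13437 genes tested with limma, 0 had an adjusted p under 0.05 (0% called), and the lowest adjusted p was 0.11. At an unadjusted p under 0.05 there were 1013 genes higher at 3.0 (7.54%) and 778 lower (5.79%); with each array centred on its median in place of the common distribution, 1422 of 1942 such genes were higher. A gene was counted as without overlap where both arrays at 3.0 lay above, or both below, both arrays at 1.5, on the common distribution and on the deposited scale alike. This held for 3221 genes higher at 3.0 (24.0% of those tested) and 2681 lower (20.0%), 43.9% in all, so a lack of overlap by itself is frequent here. It held together with a difference of at least 2-fold for 320 genes higher (2.38%) and 195 lower (1.45%). The test depended on the 2 arrays at 1.5: without replicate 1 at 1.5 it called 12 genes higher and 87 lower, and without replicate 2 at 1.5 it called 52 higher and 145 lower. Called in both cases were 10 genes higher (Tmed5, Hsdl2, Rbp7, Retsat, Slc4a4, Ehhadh, Abhd15, Elovl3, Hpdl and G0s2) and 2 lower (Tff3 and Apoa4), and 0 in opposite directions. Each of these fits has 1 array at 1.5, so its spread comes from the arrays at 3.0 and 4.5 alone and the lone array is assumed to vary like them; both fits share those arrays, so their agreement is not independent support. G0s2, an inhibitor of fat breakdown, is named after its values were seen. Hpdl passed the level filter, set on mean levels, only through the arrays at 3.0, and Tff3 and Apoa4 only through those at 1.5. This favours the direction in which each was called.

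The genes that were higher at 3.0 are named by the smallest p among genes without overlap, and Rbp7, Hpdl, Hsdl2, Tmed5, Abhd15 and Retsat came first. Rbp7, a retinol-binding protein of fat and blood vessels, was at 6.49 and 6.97 at 1.5 and at 9.35 and 9.67 at 3.0, a log2 difference of 2.78 ± 0.22 (standard error of the fit; adjusted p = 0.11). Retsat, the enzyme retinol saturase, was at 6.65 and 7.06 and at 8.57 and 8.73, a difference of 1.80 ± 0.20. In both genes the 2 arrays of a dose lay much closer to each other than to the other dose, which the choice by small p and lack of overlap favours. Hsdl2, a hydroxysteroid dehydrogenase-like protein, was at 7.58 and 7.54 and at 9.46 and 9.84. Slc4a4, a sodium bicarbonate cotransporter, was at 6.13 and 6.86 and at 9.01 and 9.23. Cd36, which carries fatty acids into cells, was at 9.25 and 9.56 and at 10.99 and 11.19. Rbp7, Retsat, Hsdl2, Slc4a4 and Cd36 had every probe set above the filter on the same side.

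The other leading genes on this side included lipid genes as well as genes of other kinds. Plin2, a coat protein of lipid droplets, was at 9.63 and 9.54 at 1.5 and at 10.72 and 10.91 at 3.0. Abhd15, a regulator of fat breakdown, was at 5.44 and 5.46 and at 7.01 and 7.02. Elovl3, a fatty acid elongase of brown fat and skin, was at 5.16 and 4.58 and at 7.49 and 8.44, a difference of 3.10 ± 0.37. Its arrays at 1.5 lay near the level filter, where the added 16 shrinks the difference. Nat8l, the enzyme that makes N-acetylaspartate, was at 5.59 and 5.14 and at 7.31 and 7.25. Hpdl was at 4.28 and 4.42 and at 6.11 and 6.27, and Ankef1, Abhd1 and A530053G22Rik differed by 2.43, 2.31 and 3.81. Hpdl lay below the level filter at 1.5 and, with 4.85 and 4.78, also at 4.5 mg/kg/day. It thus passed the filter, set on mean levels, only through the arrays at 3.0, which favours a count as higher at 3.0. Tmed5, a protein of vesicle traffic, differed by 1.62 ± 0.15, but only 3 of its 4 probe sets above the filter were higher at 3.0. Hoxa4, a gene of axial patterning, was at 5.09 and 5.14 and at 6.74 and 6.74. The choice by small p and lack of overlap favours such a small spread within a dose.

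The genes leading on the lower side were of several kinds, among them genes of the gut, of growth factor binding and of neural tissue. Apoa4, an apolipoprotein made by the intestine, was at 6.68 and 7.0 at 1.5 and at 4.58 and 4.24 at 3.0, a difference of -2.43 ± 0.21 (adjusted p = 0.11). Igfbp2, which binds insulin-like growth factors, was at 8.94 and 8.58 and at 7.08 and 7.15. Pabpn1, a nuclear protein that binds poly(A) tails, was at 11.09 and 11 and at 9.63 and 9.48, with all 4 of its probe sets lower at 3.0. Apoa4 lay below the level filter at 3.0 and, with 4.49 and 4.31, also at 4.5 mg/kg/day, whereas Pabpn1 stayed far above it at both doses compared. Apoa4 thus passed the filter only through the arrays at 1.5, which favours a count as lower at 3.0. Bdh1, an enzyme of ketone body metabolism, was at 6.77 and 7.11 and at 4.84 and 5.38. Robo2, a receptor of axon guidance, was at 7.28 and 7.09 and at 5.77 and 6.05. Tubb2b, a tubulin of neurons, was at 10.41 and 10.23 and at 9.31 and 9.11. None of these overlapped between the doses, which was a condition for being named here. Nipal1, a magnesium transporter, differed by -1.22, Zfp950 by -1.24, and the unnamed transcripts C130075A20Rik, 4632427E13Rik, 2310067E19Rik and E030024N20Rik by -1.04 to -2.03. Hoxd3os1, a transcript of the HoxD cluster, differed by -1.29, with 1 of its 2 probe sets on that side.

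**Figure D2:**
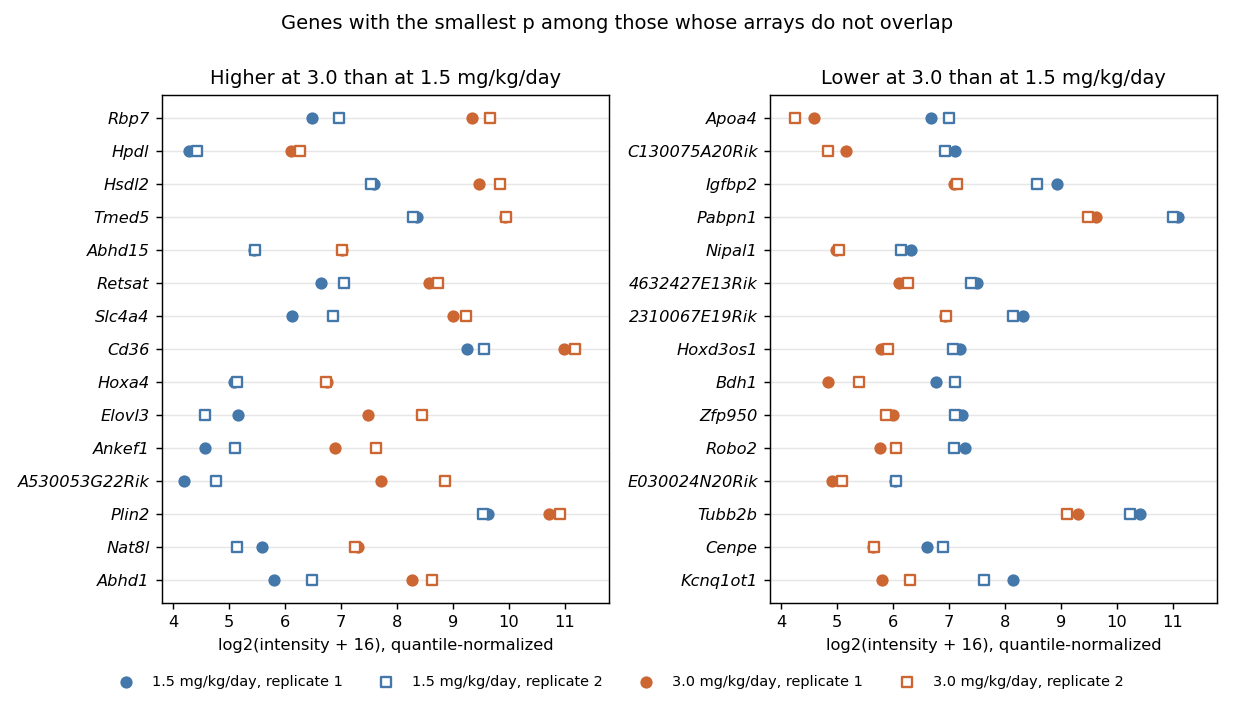
Log2(intensity + 16) of the 15 genes of each direction with the smallest p among genes without overlap, in each of the 4 arrays (1.5 mg/kg/day in blue, 3.0 mg/kg/day in orange; replicate 1 filled circles, replicate 2 open squares). The genes were chosen for not overlapping; the log2 differences run from -2.43 for Apoa4 to 3.81 for A530053G22Rik.

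Brown fat genes were mostly higher at 3.0, and replicate 1 at 1.5 was the lowest of the 4 arrays in 15 of the 17 tested. Of these 17, 13 were higher without overlap and 1 was lower, against 24.0% and 20.0% of all genes. The median difference was 1.71, against 0.01 over all genes tested. The summed intensity of the list was 2471 and 6104 at 1.5 and 17552 and 20064 at 3.0. Ucp1 was at 4.42 and 8.67 at 1.5 and at 12.15 and 12.28 at 3.0, a difference of 5.67 ± 1.96 (adjusted p = 0.33). Replicate 1 at 1.5 was at background for this gene, and replicate 2 was well above it but still below both arrays at 3.0. Cidea, a brown fat protein that enlarges lipid droplets, was at 7.14 and 8.27 and at 11 and 11.30. Otop1, a proton channel, was at 4.21 and 4.78 and at 7.91 and 8.48. Dio2, which makes active thyroid hormone in the tissue, was at 5.30 and 6.01 and at 6.71 and 7.19. In these 3 genes both arrays at 1.5 lay below both at 3.0, and for Otop1 they also lay below the level filter. Slc25a20, the carrier of acylcarnitines into mitochondria, was at 8.87 and 9.05 and at 10.80 and 10.87. The member on the lower side was Zic1, a transcription factor gene named after its values were seen, at 7.53 and 7.27 and at 6.38 and 6.45. In bulk tissue, fewer cells of a type and less RNA per cell cannot be told apart, so these levels do not separate the amount of brown fat from its activity. The list's median difference was 1.06 without replicate 1 at 1.5, with 13 genes higher and 2 lower, and 2.27 without replicate 2 at 1.5, with 16 higher and 1 lower. Among all genes 35.4% were then higher and 35.6% lower without replicate 1, and 41.9% and 34.6% without replicate 2.

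Genes of fat storage in any fat cell had the same order of arrays in their medians. Of 23 tested, 21 were higher at 3.0 without overlap and 0 lower, against 24.0% and 20.0% of all genes. The median difference was 1.08, with list medians of 7.80 and 8.68 at 1.5 and 9.53 and 9.85 at 3.0. Adipoq, the fat cell hormone adiponectin, was at 10.01 and 10.57 and at 11.21 and 11.49, a difference of 1.06 ± 0.27. Cidec, which enlarges lipid droplets, was at 6.81 and 6.51 and at 8.58 and 9.07. Agpat2, an enzyme of triglyceride synthesis, was at 7.84 and 7.74 and at 10.40 and 10.95. Cidec and Agpat2 had nearly equal levels in the 2 arrays at 1.5, where Ucp1 was 4.42 and 8.67. Lipe and Mgll, lipases that release stored fat, differed by 2.27 and 1.63, and Adig, a small protein of fat cells, by 2.62. Over the same 4 arrays the skeletal muscle fibre list had medians of 10.78 and 11.17 and of 10.85 and 10.55, which overlapped. The median difference of the fat cell list was 0.86 without replicate 1 at 1.5 and 1.60 without replicate 2 at 1.5.

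Enzymes of fatty acid oxidation were higher at 3.0 nearly throughout. Of 22 tested, 21 were higher without overlap, each also with an unadjusted p under 0.05, against 24.0% and 7.54% of all genes; 1 of the 22, Slc25a20, is also on the brown fat list. The median difference was 1.44, and the list medians were 9.01 and 9.65 at 1.5 and 10.79 and 10.92 at 3.0. Ehhadh, the bifunctional enzyme of peroxisomal oxidation, was at 5.19 and 6.65 and at 9.0 and 9.30, a difference of 3.23 ± 0.47. Cpt2, the carnitine palmitoyltransferase of the inner mitochondrial membrane, was at 8.04 and 8.50 and at 9.96 and 10.17, a difference of 1.80 ± 0.25. Etfdh, which passes electrons from this pathway to the respiratory chain, was at 9.0 and 9.69 and at 10.80 and 10.97. Transport into mitochondria, oxidation and electron transfer were thus all represented among the members without overlap. The member that overlapped was Cpt1a, the outer membrane transferase of liver and many other tissues and an entry step of the pathway, chosen for mention after its values were seen, at 8.02 and 7.93 and at 8.21 and 7.84. Pdk4, a kinase that turns cells from glucose to fat, was at 9.27 and 9.91 and at 10.74 and 10.76. The median difference of the list was 1.06 without replicate 1 at 1.5 and 1.83 without replicate 2 at 1.5.

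**Figure D3:**
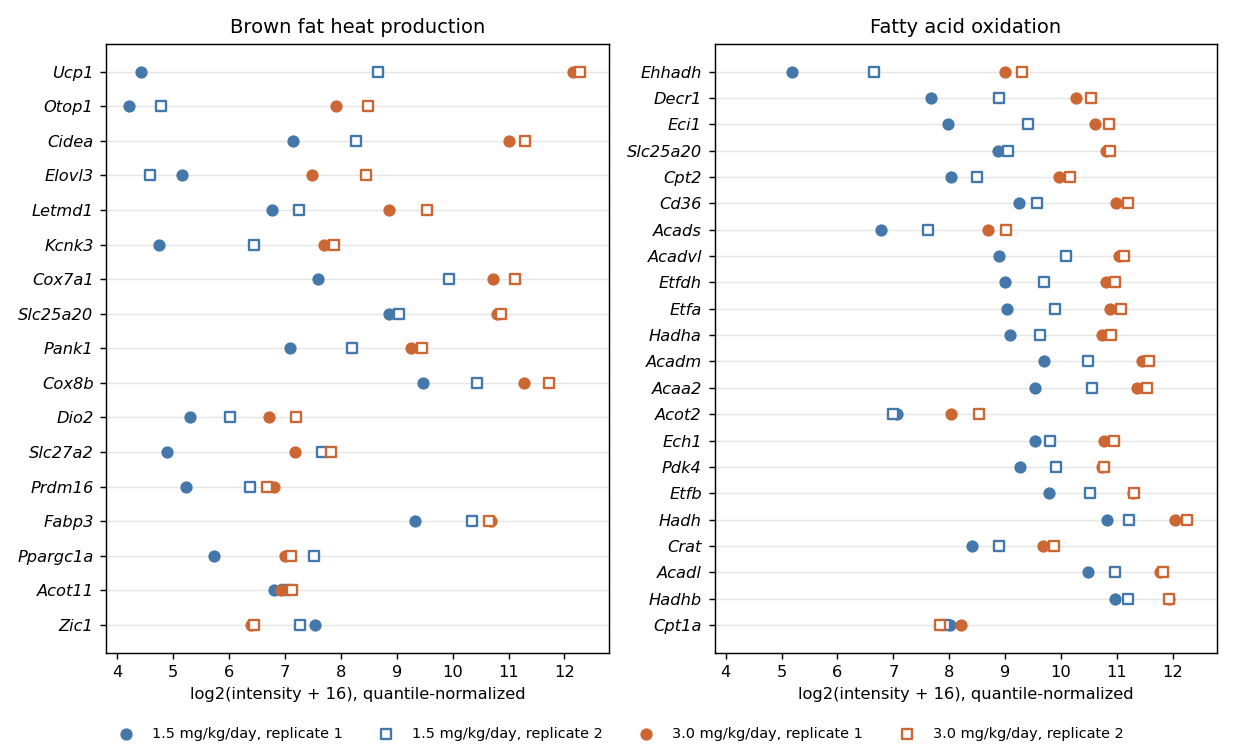
Log2(intensity + 16) of every tested gene of the brown fat list (left) and the fatty acid oxidation list (right) in each array, ordered by the difference between the doses. Both arrays at 3.0 (orange) lie to the right of both at 1.5 (blue) in 13 of 17 and 21 of 22 genes; Ucp1 spans 4.42 to 12.28.

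Subunits of the mitochondrial respiratory chain showed a smaller difference in the same direction. Of 33 tested, 32 were higher without overlap and 15 had an unadjusted p under 0.05, against 24.0% and 7.54% of all genes. The median difference was 0.67 (0.37 without replicate 1 at 1.5 and 0.90 without replicate 2 at 1.5). Cox8b, a subunit of cytochrome c oxidase used in brown fat and muscle, was at 9.47 and 10.44 at 1.5 and at 11.28 and 11.72 at 3.0. Cycs, cytochrome c, was at 11.63 and 11.95 and at 12.52 and 12.43, and Uqcrfs1, the Rieske protein, was at 10.41 and 11 and at 11.51 and 11.50. Replicate 1 at 1.5 was lowest in all 3 of these genes and in 32 of the 33. Glucose metabolism moved less uniformly, with 8 of 21 genes of glycogen use and glycolysis higher and 2 lower, against 24.0% and 20.0% of all genes. Slc2a1, the glucose transporter of red cells and many growing tissues, was on the lower side at 8.53 and 9.09 and at 7.19 and 7.50, while Gbe1, the glycogen branching enzyme, differed by 0.93 and Pygl, a glycogen phosphorylase, by 1.18; Hk1, a hexokinase, differed by -0.80 and Pgam1, a mutase of glycolysis, by 0.54.

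Genes of defence against oxidants and of the NRF2 response included more that were higher than lower, to a degree that varied with the array left out. Of 29 tested, 14 were higher without overlap and 4 lower, against 24.0% and 20.0% of all genes, with a median difference of 0.20. Without replicate 1 at 1.5, 15 were higher and 11 lower (median 0.21), and without replicate 2 at 1.5, 19 were higher and 4 lower (median 0.46). With an array left out the shares of all genes rise too. They were 35.4% higher and 35.6% lower in the first case and 41.9% and 34.6% in the second. Without replicate 2 at 3.0 the median was 0.12. Sod3, the superoxide dismutase outside cells, was at 6.21 and 5.79 at 1.5 and at 6.88 and 7.19 at 3.0. Gpx4, which protects membrane lipids, was at 10.08 and 10.39 and at 10.99 and 11.24, and Me1, a source of NADPH for fat synthesis, was at 7.81 and 7.81 and at 8.50 and 8.73. These 3 genes did not overlap, and differences in Gsr, glutathione reductase, and Srxn1, sulfiredoxin, were 0.56 and 0.58.

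**Figure D4:**
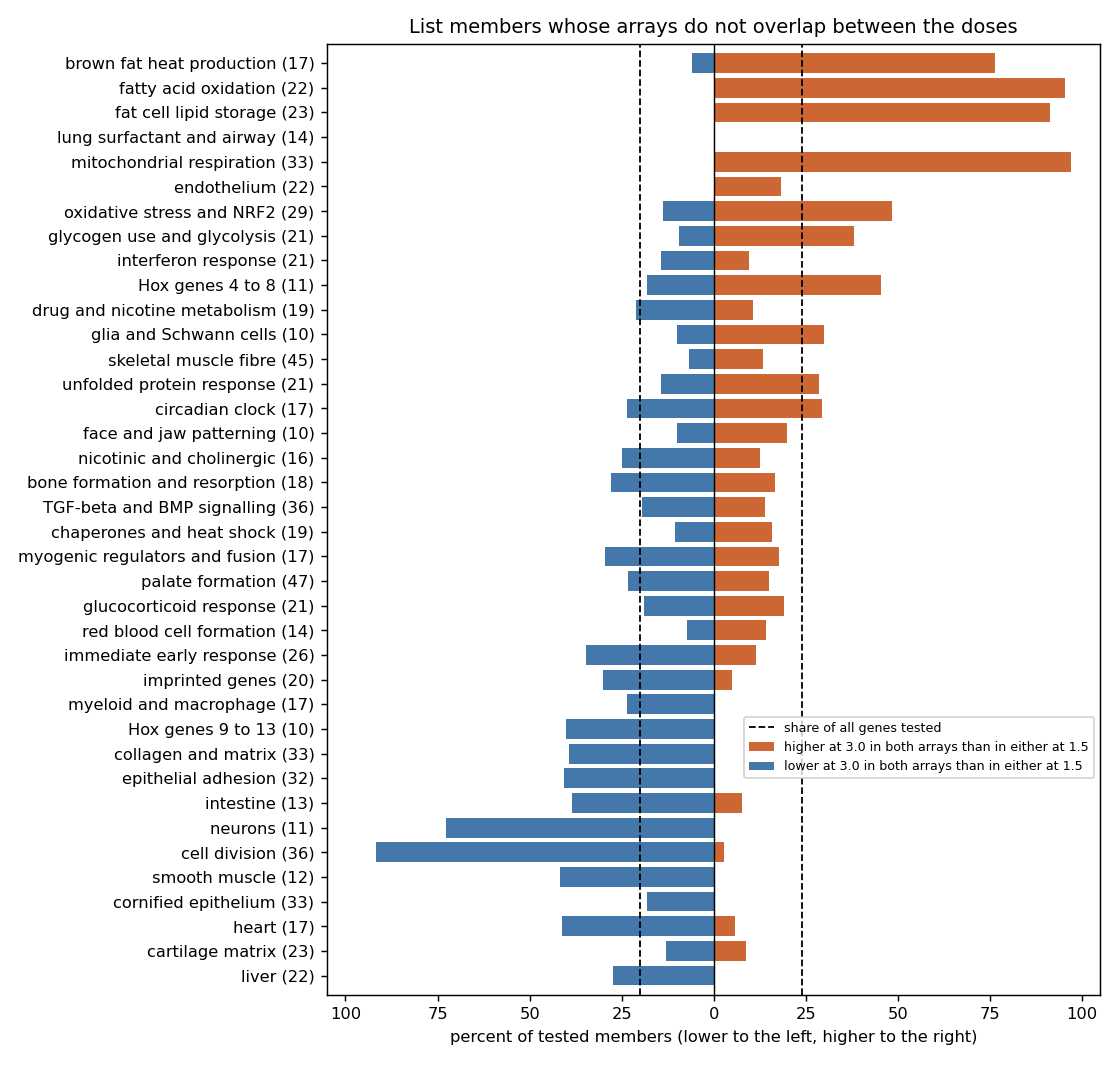
Percent of the tested members of each list with 10 or more such members (number in brackets) whose arrays did not overlap between the doses, higher at 3.0 to the right and lower at 3.0 to the left. Dashed lines mark the shares among all genes tested, 24.0% and 20.0%; cell division lies far out on the lower side, and 4 lists of fat and mitochondria on the higher side.

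Genes of cell division were lower at 3.0. Of 36 tested, 33 were lower without overlap and 1 was higher, against 20.0% and 24.0% of all genes, and 19 had an unadjusted p under 0.05 on the lower side. The median difference was -0.77, and the list medians were 7.74 and 7.39 at 1.5 and 6.92 and 7.12 at 3.0. Cdc20, which activates the complex that ends mitosis, was at 8.66 and 9.03 and at 7.48 and 7.62. Ccnb2, a mitotic cyclin, was at 7.99 and 8.48 and at 6.75 and 6.96. Kif23, a motor of the division furrow, was at 7.51 and 7.43 and at 5.67 and 6.38. These were 3 of the larger differences, at -1.29 ± 0.21, -1.38 ± 0.33 and -1.45 ± 0.33. Cenpe, a motor of the kinetochore, was at 6.61 and 6.89 and at 5.63 and 5.66, and Tpx2, a spindle protein, was at 6.85 and 7.23 and at 5.88 and 6.11. Replicate 1 at 1.5, the lowest array for most fat genes, was the lowest in 0 of the 36. For the 33 genes lower at 3.0 without overlap this follows from the count itself. The median difference was -0.96 without replicate 1 at 1.5 and -0.56 without replicate 2 at 1.5. Marker lists of other organs differed between the same arrays, among them the liver list with medians of 4.74 and 9.83 and of 4.82 and 4.81, and their part in this result was not tested.

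Promoters of dividing-cell genes are known to carry CCAAT boxes and the element TTTGAA, the core of the site called CHR, which DREAM and related complexes bind, and those of metabolic and many other genes often carry sites of the Sp1 family. Windows of 300 bases, from 250 before to 50 after the start, were read from RefSeq on GRCm38.p6, and both strands were searched. CCAAT was found in 24 of the 30 cell division genes with a window (80%) and in 41.1% of 27025 genes, and TTTGAA in 15 of 30 (50%) and in 20.2%. The site of the Sp1 family, searched as GGGCGGG, was found in 18 of the 30 (60%), in 11 of 19 fatty acid oxidation genes (57.9%), in 7 of 14 brown fat genes (50%) and in 27.9% of all. A direct repeat of AGGTCA with any 1 base between the copies, an element of nuclear receptors such as PPARs, was found in 0 of 19 and 0 of 14, and in 0.0481% of all. These are matches of letters and not binding sites. The list genes counted here had all passed the level filter, whereas the 27025 genes were not filtered, so the shares are not of like sets. Promoters of 2 cell division genes, Ccnb2 and Kif23, and of 2 fatty acid oxidation genes, Cpt2 and Ehhadh, are shown because these genes are described above. Capitals mark every match to the 3 shorter motifs (the CCAAT box, the CHR core and the Sp1 site) on either strand, and each sequence reads 5′ to 3′ along the gene.
Ccnb2 (chr9:70421505-70421804, minus strand): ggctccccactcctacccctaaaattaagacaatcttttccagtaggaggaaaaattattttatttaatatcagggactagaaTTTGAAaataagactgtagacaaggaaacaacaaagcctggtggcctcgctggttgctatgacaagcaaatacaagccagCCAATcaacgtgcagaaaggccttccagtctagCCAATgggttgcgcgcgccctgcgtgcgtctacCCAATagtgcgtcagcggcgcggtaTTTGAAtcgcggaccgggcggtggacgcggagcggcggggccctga
Kif23 (chr9:61946750-61947049, minus strand): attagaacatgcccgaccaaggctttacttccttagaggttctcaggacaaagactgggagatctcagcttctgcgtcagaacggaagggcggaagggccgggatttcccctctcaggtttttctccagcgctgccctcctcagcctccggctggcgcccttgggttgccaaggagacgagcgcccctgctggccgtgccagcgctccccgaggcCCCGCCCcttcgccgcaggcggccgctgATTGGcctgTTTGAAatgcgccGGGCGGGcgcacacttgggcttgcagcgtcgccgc
Cpt2 (chr4:107923540-107923839, minus strand): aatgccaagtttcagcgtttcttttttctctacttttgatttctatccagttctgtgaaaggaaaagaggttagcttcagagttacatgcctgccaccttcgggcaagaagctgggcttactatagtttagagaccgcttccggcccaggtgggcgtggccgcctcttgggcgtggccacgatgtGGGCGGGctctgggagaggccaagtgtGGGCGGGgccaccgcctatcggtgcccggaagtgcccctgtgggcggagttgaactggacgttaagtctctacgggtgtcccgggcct
Ehhadh (chr16:21787785-21788084, minus strand): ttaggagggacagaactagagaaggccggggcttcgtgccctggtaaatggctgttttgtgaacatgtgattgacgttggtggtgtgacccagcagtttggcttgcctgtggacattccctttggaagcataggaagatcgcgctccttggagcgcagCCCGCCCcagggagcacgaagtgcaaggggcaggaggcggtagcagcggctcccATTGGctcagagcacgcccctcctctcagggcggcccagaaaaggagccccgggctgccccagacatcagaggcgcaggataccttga
Ccnb2 held 3 CCAAT and 2 TTTGAA matches. Kif23 held 1 CCAAT match, 1 TTTGAA match and 2 GGGCGGG matches. Cpt2 held 2 GGGCGGG matches, and Ehhadh held 1 CCAAT and 1 GGGCGGG match. GGGCGGG was thus present in windows of both groups, at nearly the same share in the cell division and the fatty acid oxidation genes.

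Hox genes differed by their place in the clusters. Of the 4 tested genes of groups 1 to 3, all 4 were higher at 3.0 without overlap, and of 11 genes of groups 4 to 8, 5 were higher and 2 lower. Among all genes 24.0% were higher and 20.0% lower. Of the 8 Hox genes tested in groups 9 to 11, 0 were higher and 4 lower without overlap, and all 8 differences were negative. Hoxc10 and Hoxd11 lay below the level filter in both arrays at 3.0. Of 16 genes with a probe set on the list of groups 9 to 13, 13 and 7 lay above the filter at 1.5 and 5 and 7 at 3.0. Some tested members thus passed the filter through arrays other than those at 3.0, which favours lower counts at 3.0. Hoxa3, active from the hindbrain and neck backwards, was at 5.63 and 6.01 at 1.5 and at 7.18 and 7.16 at 3.0. Hoxa5, of the neck and upper chest, was at 6.65 and 7.95 and at 8.42 and 8.02. Hoxc8, of the chest, was at 7.16 and 7.29 and at 6.19 and 5.60. Hoxc10, of the loin and hind limb, was at 7.81 and 4.79 and at 4.25 and 4.23, so that replicate 1 at 1.5 alone was high. Without that array 4 of the 10 members of the list of groups 9 to 13, which also holds Tbx4 and Pitx1, were higher and 5 lower. Of all genes 35.4% were then higher and 35.6% lower. The list's median difference went from -0.39 to -0.03 without that array and was -0.81 without replicate 2 at 1.5. Hoxa2, Hoxb2 and Hoxb3 differed by 0.60, 0.67 and 0.29, and Hoxc6 by -0.47. Marker lists of fat and of other organs differed between the same arrays, and their part in the Hox differences was not tested.

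**Figure D5:**
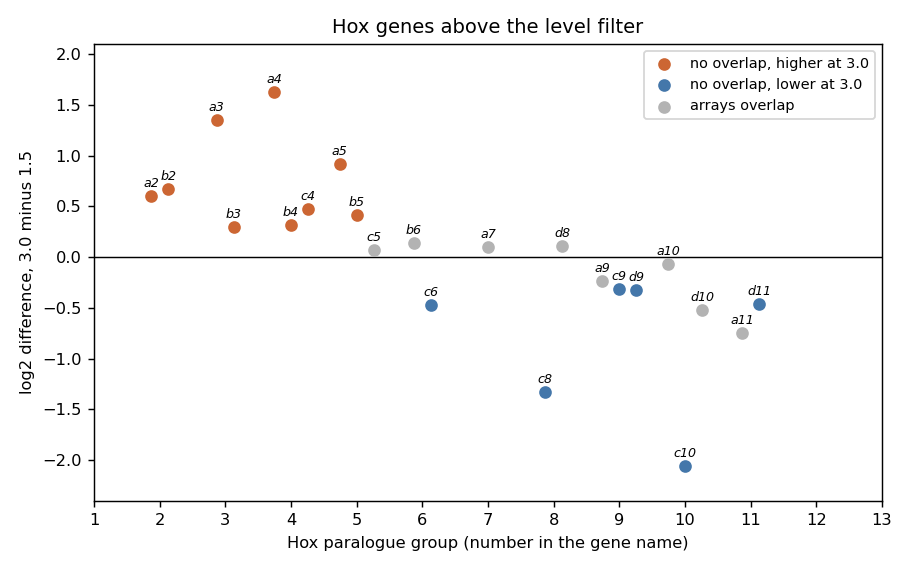
Log2 difference, 3.0 minus 1.5 mg/kg/day, of each of the 23 tested Hox genes (y axis) against its paralogue group (x axis); orange and blue points are genes without overlap, higher and lower at 3.0, and grey points overlap. The tested genes of groups 2 to 4 lie above 0 and those of groups 9 to 11 below it, down to -2.06 for Hoxc10.

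Most neuronal genes were lower at 3.0. Of 11 neuronal genes, 8 were lower without overlap and 0 higher, against 20.0% and 24.0% of all genes, with a median difference of -0.70 that lay between -0.61 and -0.84 when 1 of the 4 arrays was left out. Of 16 with a probe set, 14 and 14 lay above the level filter at 1.5 and 8 and 8 at 3.0. Some tested members thus passed the filter through arrays other than those at 3.0, which favours lower counts at 3.0. Tubb3, a tubulin of nerve cells, was at 5.57 and 5.78 at 1.5 and at 4.42 and 4.76 at 3.0, and Map2, which binds microtubules in dendrites, was at 7.04 and 6.55 and at 5.89 and 6.09. Nefl, the light neurofilament, was at 7.82 and 7.34 and at 5.01 and 6.03. Chga, of neuroendocrine granules, and Gap43, of growing axons, differed by -0.89 and -0.56. The glia and Schwann cell list had 3 of 10 genes higher and 1 lower, near the shares of all genes, and its median difference of 0.05 was -0.32 without replicate 1 at 3.0; Mbp, a myelin protein, was at 8.29 and 8.42 and at 9.94 and 8.56, high in replicate 1 at 3.0. Of 20 imprinted genes, which are read from 1 parental copy, 6 were lower and 1 higher, the lower share not far from the 20.0% of all genes, with a median difference of -0.24 that lay between -0.10 and -0.37 with 1 array left out. Kcnq1ot1, a long noncoding RNA that silences its neighbours, was at 8.14 and 7.62 and at 5.79 and 6.30, a difference of -1.84 ± 0.29. Meg3, a long noncoding RNA of the Dlk1 region, was at 12.02 and 12.01 and at 11.27 and 11.13. Mest, Mirg and Nnat, the neuronatin gene, differed by -0.48, -0.52 and -0.92.

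Matrix, smooth muscle and epithelial genes were lower at 3.0 or overlapped. Of 33 collagen and matrix genes, 13 were lower without overlap and 0 higher, with a median difference of -0.41. This count and those of the next 2 lists stand beside 20.0% lower and 24.0% higher among all genes. Fn1, fibronectin, was at 11.22 and 11.16 at 1.5 and at 10.66 and 10.08 at 3.0, and Col5a1, a chain of type V collagen, was at 11.15 and 10.79 and at 10.36 and 10.16. Of 12 smooth muscle genes 5 were lower, among them Myocd, a coactivator of smooth muscle genes, at 6.62 and 7.94 and at 5.81 and 5.42 (1 of its 2 probe sets on that side), and Acta2, smooth muscle actin, at 11.64 and 11.43 and at 11.18 and 10.87. Of 32 epithelial adhesion genes 13 were lower and 0 higher. Dsp, desmoplakin, was at 11.21 and 9.77 and at 7.58 and 7.21, a difference of -3.10 ± 0.55, and Krt8, a keratin of simple epithelia, was at 9.0 and 8.47 and at 7.77 and 6.68. Cdh1, E-cadherin, was at 9.15 and 8.91 and at 8.82 and 7.71. The median differences were -0.81 for smooth muscle and -0.48 for epithelial adhesion. With 1 of the 4 arrays left out, the collagen median lay between -0.57 and -0.18 (the latter without replicate 1 at 1.5), that of smooth muscle between -1.09 and -0.26 (the latter without replicate 1 at 1.5) and that of epithelial adhesion between -0.78 (without replicate 1 at 3.0) and -0.22 (without replicate 2 at 3.0).

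For several tissue lists the difference came from 1 array. Horny epithelium genes had medians of 8.48 and 5.96 at 1.5 and of 6.0 and 6.10 at 3.0: Krt14, the basal keratin, was at 10.29 and 7.24 and at 6.39 and 7.67, and Hrnr and Sprr1b, of the horny layer, differed by -2.89 and -2.41. Cartilage genes had medians of 8.52 and 5.46 and of 5.69 and 5.79. Col2a1, the main cartilage collagen, was at 11.83 and 5.83 and at 6.47 and 6.91, and Acan, aggrecan, was at 9.57 and 5.91 and at 6.12 and 6.40. Cnmd and Matn3, of cartilage matrix, showed the same single high array. Without replicate 1 at 1.5 the median difference of the cartilage list went from -1.48 to 0.35 and that of horny epithelium from -1.33 to -0.03; without replicate 2 at 1.5 they were -3.24 and -2.79.

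Liver and heart genes stood out in replicate 2 at 1.5. The liver list had medians of 4.74 and 9.83 at 1.5 and of 4.82 and 4.81 at 3.0, and Alb, albumin, was at 5.15 and 12.30 and at 5.29 and 5.42. Afp, Fga, Igfbp1 and Serpina1c, genes of fetal or adult liver, were high in that same array and at or near background at 3.0. The heart list had medians of 5.21 and 9.10 and of 6.23 and 5.97. Without replicate 2 at 1.5 the median difference of the liver list went from -2.41 to 0.11 and that of the heart list from -1.41 to 0.06; without replicate 1 at 1.5 they were -5.05 and -2.65. Of 17 heart genes tested, 7 were lower and 1 higher without overlap all the same, against 20.0% and 24.0% of all genes. Among the lower ones Tnnt2, cardiac troponin T, was at 10.60 and 12.08 and at 9.98 and 9.88. Of 13 intestine genes 5 were lower and 1 higher without overlap, against 20.0% and 24.0% of all genes. Tff3, of goblet cells, was at 8.67 and 6.25 and at 4.54 and 4.34, and Fabp2, of intestinal absorption, was at 7.31 and 6.22 and at 4.94 and 4.77. Tff3 and Apoa4, also on this list, passed the level filter, set on mean levels, only through the arrays at 1.5, which favours a count as lower at 3.0. Of 20 intestine genes with a probe set, 14 and 12 lay above the filter at 1.5 and 10 and 8 at 3.0. Lung genes had medians of 4.70 and 9.05 and of 9.34 and 7.13, with 0 of 14 without overlap in either direction. Sftpc, the surfactant protein of the lung's alveoli, was at 4.64 and 12.20 and at 12.41 and 10.98, so that all arrays but replicate 1 at 1.5 held it at a high level. In the array at 3.0 with the lower lung level, Scgb3a1, an airway secretory protein, was at 7.91, against 4.29, 4.66 and 4.37 in the other 3 arrays.

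Nicotinic receptor and muscle genes lay on both sides, and their counts are read against 24.0% higher and 20.0% lower among all genes. Of 16 genes of nicotinic and cholinergic signalling tested, 2 were higher and 4 lower without overlap, with a median difference of -0.03. Chrna1, the alpha subunit of the muscle receptor, was at 8.39 and 8.06 at 1.5 and at 8.75 and 8.50 at 3.0, a difference of 0.40 ± 0.22 (adjusted p = 0.47). Chrng, its fetal gamma subunit, was at 7.04 and 6.74 and at 6.47 and 6.35, a difference of -0.48 ± 0.18 with 1 of its 2 probe sets on that side, and Chrnd, the delta subunit, was at 6.28 and 6.34 and at 6.33 and 6.50. Chrna3, of autonomic ganglia, was at 5.57 and 5.16 and at 5.20 and 5.01, and Chrna7, a subunit of neuronal receptors, lay between 4.47 and 4.62, below the level filter. Chrna9, of hair cells and other tissues, was at 4.79 and 5.63 and at 6.46 and 6.24, and Lrp4, the agrin receptor of the neuromuscular junction, was at 7.46 and 7.48 and at 7.11 and 6.73. Of 45 skeletal muscle fibre genes, 6 were higher and 3 lower without overlap. Tnni1 and Tnnc1, troponins of slow fibres, were among the lower ones, at 10.63 and 11.18 and at 9.92 and 9.98 for Tnni1 and with a difference of -0.92 for Tnnc1. Myh4 and Myh2, myosins of fast fibres, were among the higher ones, with differences of 0.95 and 0.99. Acta1, skeletal actin, overlapped with a difference of -0.38 ± 0.24 that was 0.04 on the deposited scale and 0.11 with arrays centred on their medians. Myh3, embryonic myosin, overlapped with a difference of -0.44 ± 0.22. Atp2a2, the calcium pump of slow muscle and heart, differed by -1.11, and the heart list stood high in replicate 2 at 1.5, as given above. Of 17 genes of muscle formation and fusion 3 were higher and 5 lower, together a share close to the 43.9% of all genes.

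Genes of palate formation and of TGF-beta and BMP signalling lay on both sides. Of 47 palate genes 7 were higher and 11 lower without overlap (24.0% and 20.0% among all genes), with a median difference of -0.17 that was 0.09 without replicate 1 at 1.5. Tgfb3, the growth factor of palatal fusion, was at 8.27 and 7.66 at 1.5 and at 7.60 and 7.43 at 3.0, a difference of -0.45 ± 0.24 (adjusted p = 0.46). Snai2, a regulator of the change from epithelium to mesenchyme, was at 8.58 and 7.77 and at 7.57 and 7.57. Gli3 and Fgfr1, of Hedgehog and FGF signalling, differed by -0.63 and -0.76, and Wnt11 and Meox2 by 0.62 and 0.53. Hand2, a transcription factor of jaw and heart precursors that is also on the heart list, was at 5.86 and 7.23 and at 4.63 and 4.53, a difference of -1.96 ± 0.42, the largest of the palate list. Of the fusion and patterning genes named whatever their values, 6 overlapped: Tgfbr2, Jag2, Shh, Msx1, Twist1 and Trp63 differed by -0.03 ± 0.21, -0.01 ± 0.21, -0.20 ± 0.36, 0.27 ± 0.23, -0.37 ± 0.49 and -0.34 ± 0.41. With arrays centred on their medians Tgfbr2 was at 0.22 and Jag2 at 0.01. Probe sets of Tgfbr2, Shh and Trp63 differed in direction. Of 36 TGF-beta and BMP genes 5 were higher and 7 lower, with Id1, a target of BMP signals, at 7.55 and 7.21 and at 8.04 and 7.99 and Bmp4 at 7.74 and 7.62 and at 7.46 and 7.16.

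The other lists are given by their counts. Counts are given as higher and lower without overlap, beside 24.0% and 20.0% among all genes, and most lie near or under those shares. Endothelial genes gave 4 and 0 of 22, red blood cell genes 2 and 1 of 14, myeloid genes 0 and 4 of 17 and mast cell genes 0 and 3 of 9. Bone genes gave 3 and 5 of 18, and face and jaw genes 2 and 1 of 10. The small lists gave 1 and 1 of 8 for thymus, 0 and 2 of 4 for B cells, 0 and 0 of 4 for salivary gland, 1 and 1 of 5 for hair, 0 and 1 of 5 for stomach, 0 and 1 of 3 for kidney and 0 and 1 of 3 for sex-linked genes. Response genes gave 4 and 4 of 21 for glucocorticoids, 5 and 4 of 17 for the circadian clock, 3 and 9 of 26 for immediate early genes, 2 and 3 of 21 for interferon, 6 and 3 of 21 for the unfolded protein response, 3 and 2 of 19 for chaperones and 2 and 4 of 19 for drug and nicotine metabolism. Without replicate 1 at 1.5 the shares of all genes were 35.4% higher and 35.6% lower, and without replicate 2 at 1.5 they were 41.9% and 34.6%. The glucocorticoid list turned on the arrays at 1.5, with 4 higher and 16 lower (median difference -0.85) without replicate 1 and 14 higher and 4 lower (0.28) without replicate 2. Among its members Angptl4, an inhibitor of lipoprotein lipase, was higher at 3.0 with a difference of 0.98, while Per1, a clock gene, was at 6.99 and 8.12 at 1.5 and at 6.26 and 6.41 at 3.0 and Fkbp5, a cochaperone of the receptor, was at 7.87 and 9.05 and at 7.43 and 6.90. Per1 and Fkbp5 were highest in replicate 2 at 1.5.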

How the data were processed

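The deposited values are linear intensity summaries, 1 per probe set and array, in the series' value table of 45101 probe sets; the sources used here do not name the authors' method of summarizing or scaling. Symbols came from the platform annotation and were updated by Entrez ID through RefSeq: 34945 probe sets named 1 gene and were kept, 932 named several, 9160 none and 64 were controls. Values were taken as log2(intensity + 16) and quantile-normalized over the 6 nicotine arrays. Each of 18193 genes was read from its brightest probe set, and genes under the 40th percentile were left out. The percentile was taken on the mean over the 6 arrays, so a gene high at only 1 dose could pass. Dose means were fitted with limma 3.58.1 (lmFit, eBayes) in R 4.3.3, with 3 residual degrees of freedom; the contrast 3.0 minus 1.5 is two-sided, with Benjamini-Hochberg adjustment and a threshold of 0.05. The script was tested on simulated data.

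The members, the 48 gene lists and the rules were chosen with earlier results of these data known. Genes are named by p among those without overlap (15 a direction), by list (up to 5), from a fixed set of 26, and for the arrays in which they stand highest. Of the 278 genes so named 101 have several probe sets above the filter, and in 20 these differ in sign. Other exceptions are stated where they appear. The replicate numbers did not pair the arrays. Alternatives covered scaling, the added constant, the filter, the arrays fitted, probe set choice, the replicate block, eBayes options, array weights and each array left out.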

Additional observations from a re-analysis of the deposited data

How the results depend on the processing

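Of 19 alternatives, 17 called 0 genes; limma called some without replicate 1 or without replicate 2 at 1.5 mg/kg/day, and with 1 array left out the counts ran from 0 to 52 higher and from 0 to 145 lower. With 1 array left out, which asks less of a gene, the counts without overlap ran from 3221 to 5633 higher and from 2681 to 4782 lower. With every probe set on its own, 6305 were counted under genes without overlap, higher at 3.0, and 4456 under genes without overlap, lower at 3.0. The replicate numbers did not pair the arrays (correlations of deviations -0.22, -0.19 and -0.22). The fit with the replicate block called 0 genes, with a lowest adjusted p of 0.35 and 1255 genes at an unadjusted p under 0.05. With the arrays centred on their medians the median difference of all genes was 0.07.

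Of 149 genes named with values, 134 kept their sign in every alternative, and of 47 list medians 19 did; the causes of the turns were not tested beyond the arrays left out. On the deposited scale the log2 difference was 0.040 for Acta1 and 0.15 for Tgfbr2. With the arrays centred on their medians it was 0.11 for Acta1, 0.011 for Jag2 and 0.22 for Tgfbr2. With the mean of a gene's probe sets it was 0.25 for Tgfbr2 and 0.055 for Trp63. With 1 array left out the differences of genes that turned ran from -3.32 to 0.35 for Acan, -6.95 to 0.20 for Alb, -5.42 to 0.049 for Cnmd, -5.14 to 0.86 for Col2a1, -0.14 to 0.24 for Cpt1a, -0.075 to 0.050 for Jag2, -5.06 to 0.50 for Matn3, -0.10 to 3.44 for Scgb3a1, -5.88 to 0.0094 for Serpina1c, -0.51 to 7.05 for Sftpc, -0.60 to 0.20 for Shh, -0.21 to 0.15 for Tgfbr2, -0.78 to 0.10 for Trp63 and -1.10 to 0.36 for Twist1.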

Other observations

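Genes outside the lists and outside the rule for naming also differed by large amounts without overlap; they were picked after their values were seen, by the size of the difference. Higher at 3.0 were Adtrp, a hydrolase of fatty acid esters, at 5.72 and 5.26 at 1.5 and at 8.25 and 8.83 at 3.0, and Ffar4, a receptor for long-chain fatty acids, at 4.66 and 4.77 and at 7.49 and 7.89. Nrg4, a secreted factor of brown fat, was at 4.69 and 5.11 and at 7.08 and 7.66. Slc25a35 and Slc25a42, carriers of the inner mitochondrial membrane, were at 4.89 and 5.15 and at 7.17 and 7.82, and at 5.90 and 6.27 and at 8.36 and 8.79. Prkar2b, a regulatory subunit of protein kinase A, was at 7.54 and 8.31 and at 10.34 and 10.57. In all of these both arrays at 1.5 lay below both at 3.0. On the lower side the differences of 3 such genes were carried by 1 array at 1.5: Lypd8, of the colon, was at 8.89 and 4.85 and at 4.27 and 4.22, Spink1, a trypsin inhibitor of pancreas and gut, at 8.36 and 5.29 and at 4.64 and 4.60, and Apof, of liver, at 4.17 and 9.02 and at 4.13 and 4.11.

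The arrays at 4.5 mg/kg/day do not belong to the comparison, but their values stand beside it. Several brown fat genes differed between those 2 arrays, with Ucp1 at 11.92 and 6.62, Cidea at 10.94 and 9.47 and Otop1 at 7.36 and 4.96. The genes with the smallest p lay closer together there, with Rbp7 at 7.86 and 7.84, Hsdl2 at 8.82 and 8.67, Tmed5 at 9.16 and 9.10 and Retsat at 8.18 and 8.09. The spread between these 2 arrays enters the p, so genes with a small p were partly chosen for this closeness. The brown fat list had medians of 8.44 and 7.0 there, and the cell division list 7.52 and 6.72.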
